A study of Homo sapiens with 4 samples.

Results

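The immediate early AP-1 and EGR1 genes were taken as the 10 genes FOS, FOSB, FOSL1, FOSL2, JUN, JUNB, JUND, EGR1, IER2 and IER3, chosen by symbol, out of 19775 genes that had a probe set annotated to a single gene. A probe set is a group of short oligonucleotides on the array that together report 1 transcript. The 10 genes had 22 probe sets, each annotated to exactly 1 of them, out of 54613 that were not array controls, and all 22 were tested. They were measured on Affymetrix arrays in BT474 cells, an established human line of luminal breast cancer with an amplified ERBB2 gene. Treated dishes had received fresh medium with 0.5 mM AICAR for 24 h and control dishes fresh medium with vehicle, with 2 arrays per group and 4 in all. AICAR is a nucleoside that cells phosphorylate to an AMP mimic, which activates the energy sensor AMPK. The data come from a single cell line at a single dose and time, and no label states that replicates were separate cultures, so a p-value here reflects the spread among these arrays, part of which may be technical.

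Immediate early genes are transcribed within minutes of a growth factor, serum or stress signal, without new protein synthesis, and most of their RNAs are short-lived. FOS and JUN family proteins carry a basic DNA-binding region and a leucine zipper, through which FOS members pair with JUN members, and JUN members also with each other, to form the transcription factor AP-1. EGR1 is a zinc finger transcription factor that MAP kinase signalling induces through serum response factor and its ternary complex partners. The JUN promoter is known to be bound by JUN and ATF2 dimers, so that JUN can activate its own gene.

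The sequence before the gene start is shown for JUN, the 1 member past the threshold given below, and for JUND, the relative with the same kind of site. It is also shown for EGR1, whose promoter is a textbook target of serum response factor. The sequences are the 250 bases before the annotated start, 5′ to 3′ on the gene's strand, from RefSeq on GRCh38.p14. Capitals mark motif matches.
JUN, chr1:58784048-58784297, minus strand: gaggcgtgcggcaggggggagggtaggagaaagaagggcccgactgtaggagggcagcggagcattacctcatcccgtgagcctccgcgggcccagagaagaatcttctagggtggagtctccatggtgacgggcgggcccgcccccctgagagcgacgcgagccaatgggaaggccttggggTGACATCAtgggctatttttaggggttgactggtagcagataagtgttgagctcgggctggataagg
JUND, chr19:18281623-18281872, minus strand: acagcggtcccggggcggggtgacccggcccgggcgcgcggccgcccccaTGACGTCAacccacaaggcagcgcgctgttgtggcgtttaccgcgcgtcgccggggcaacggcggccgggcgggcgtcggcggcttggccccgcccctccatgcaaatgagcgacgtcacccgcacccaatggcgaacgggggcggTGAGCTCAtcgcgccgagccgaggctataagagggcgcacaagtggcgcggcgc
EGR1, chr5:138465229-138465478, plus strand: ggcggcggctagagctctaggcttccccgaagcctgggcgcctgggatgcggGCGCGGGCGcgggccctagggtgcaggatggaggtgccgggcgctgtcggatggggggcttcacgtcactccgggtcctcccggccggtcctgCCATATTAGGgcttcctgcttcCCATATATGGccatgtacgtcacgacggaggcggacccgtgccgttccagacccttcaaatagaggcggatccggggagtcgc
In JUN the capitals mark TGACATCA, a match to TGANNTCA that began 67 bases before the start. JUND held 2 matches to TGANNTCA, of which TGACGTCA is also the consensus cAMP response element. EGR1 held 2 CArG boxes, the serum response factor motif, as CCATATTAGG and CCATATATGG. It also held GCGCGGGCG, 1 match to GCGNGGGCG, a loose form of the EGR protein site that allows any base at N. Of the 10 genes 8 had such a sequence, and the promoters of FOS, FOSB, FOSL2, JUNB and IER2 had 0 matches to the motifs searched. These motifs were TGANTCA, TGANNTCA, TGACGTCA (a special case of TGANNTCA), GCGNGGGCG and the CArG box, on both strands. Over 35116 RefSeq promoters, TGANNTCA occurred in 10.1%, TGANTCA in 6.57%, TGACGTCA in 1.65%, the CArG box in 1.16% and GCGNGGGCG in 8.41%. A match describes these letters and is not evidence of binding. Sequence beyond these 250 bases and variants of the motifs were not searched, so 0 matches does not mean that a gene lacks such sites.

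JUN was the 1 member with probe sets past the threshold. After AICAR its RNA was 1.69-fold higher by 1 probe set and 1.56-fold higher by another, and all 4 of its probe sets had positive differences. The other 9 genes had 0 probe sets past the threshold, an adjusted p under 0.05 in limma with Benjamini-Hochberg adjustment over all 54613 probe sets. Thus 2 of 22 member probe sets were higher and 0 lower, against a background of 0.599% of all probe sets called higher, 0.888% called lower and 1.49% called in either direction. By an unadjusted p under 0.05, 3 member probe sets had positive and 2 negative differences, against 6.92% and 9.19% of all probe sets, or 16.1% in either direction. The median difference of the 22 probe sets was 0.0076 (log2), beside 0.01 over all probe sets, and 11 of the 22 were positive. In bulk RNA, a change in every cell and a change in some of the cells cannot be told apart. A gene without a call is not shown to be unchanged, and a change that came and went before 24 h would not be seen.

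**Figure D1:**
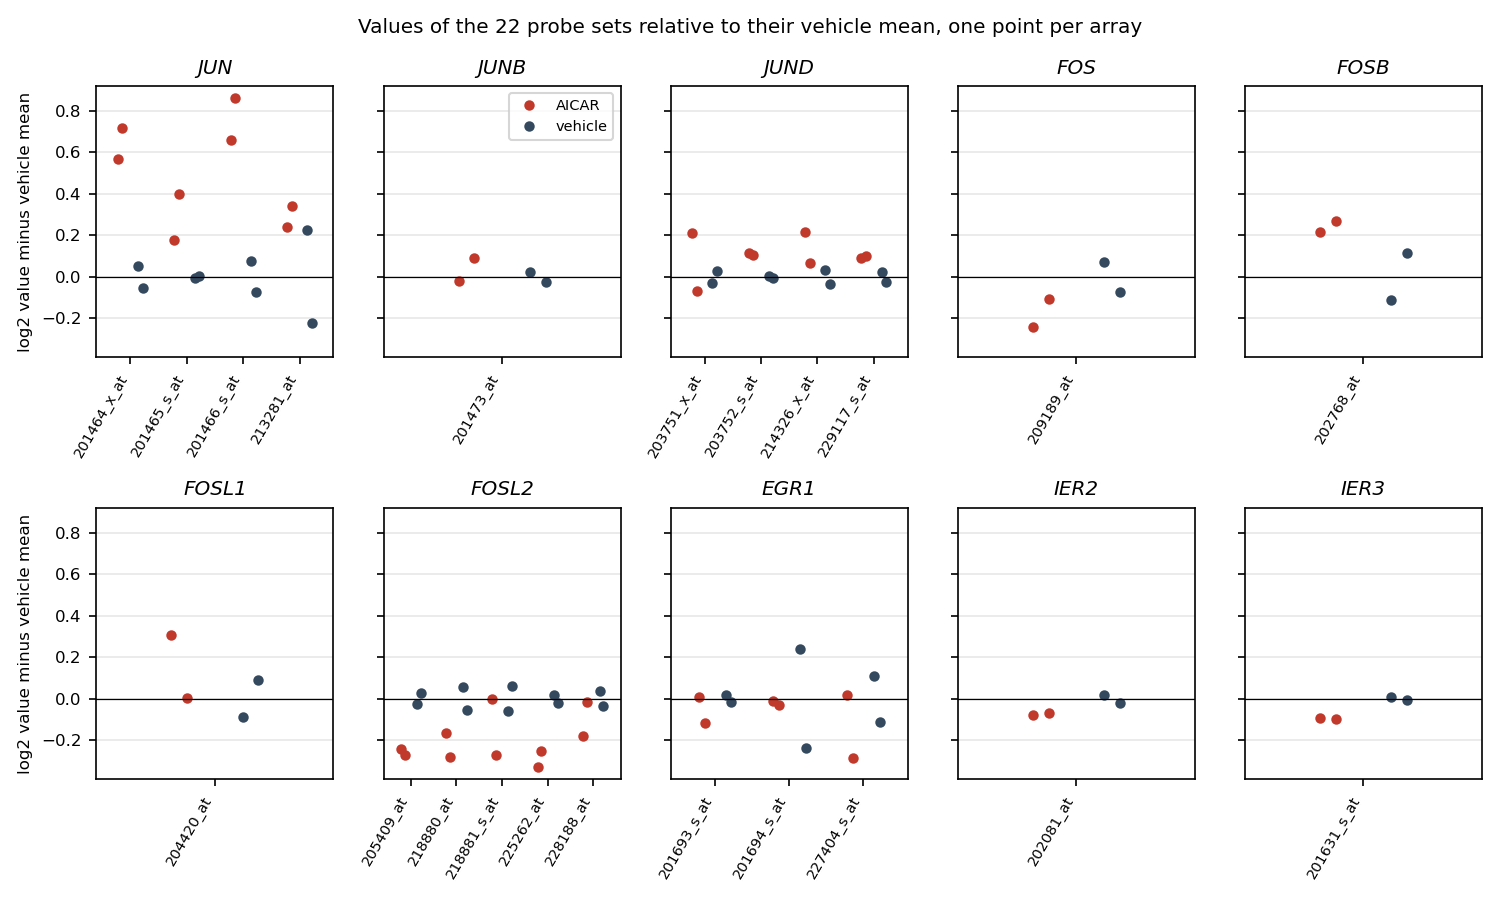
Log2 values of the 22 probe sets on each array, minus the vehicle mean of the same probe set, with AICAR arrays (red) left of vehicle arrays (dark) and 1 panel per gene. The AICAR points of JUN lie above the vehicle points in all 4 probe sets, while in FOSL2 most lie below.

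Of the JUN family, JUN encodes the strongest activator and is induced through the stress kinase JNK, which also phosphorylates its protein. Probe set 201466_s_at read 9.29 and 9.49 (log2) on the AICAR arrays, against 8.70 and 8.55 on the vehicle arrays. The groups did not overlap, and the lower AICAR value stood above the higher vehicle value by more than either pair spanned. Its difference, AICAR minus vehicle, was 0.76 (log2, SE 0.108, 95% confidence interval 0.51 to 1.01, adjusted p = 0.0305), and 0.593% of all probe sets had a larger absolute difference. Probe set 201464_x_at read 11.17 and 11.32 with AICAR, against 10.65 and 10.55 with vehicle, again without overlap. Its difference was 0.64 (log2, SE 0.0977, adjusted p = 0.0369), with a 95% confidence interval of 0.41 to 0.87.

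The other probe sets of JUN had smaller differences of the same sign and were not called. Probe set 201465_s_at read 7.60 and 7.83 with AICAR, against 7.42 and 7.43 with vehicle, a difference of 0.29 (log2, 95% confidence interval 0.04 to 0.53, adjusted p = 0.237). Probe set 213281_at read 7.27 and 7.37 with AICAR, against 7.25 and 6.80 with vehicle, so that the vehicle pair spanned more than the gap between the groups. Its difference was 0.29 (log2, 95% confidence interval -0.06 to 0.65, adjusted p = 0.402). The mean of the 4 probe sets, fitted among 19775 gene means, was higher by 0.50 (log2, 95% confidence interval 0.27 to 0.72, adjusted p = 0.0415), where 3.77% of all genes were called in either direction. With the brightest probe set alone for each gene, JUN was again the 1 member called, beside 3.66% of all genes. Its brightest is the same 201464_x_at that was called above. The suffix x_at marks probe sets whose oligonucleotides may also match other transcripts, and whether this bears on 201464_x_at was not tested.

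JUN kept its sign but not its call when an array was left out. Without 1 of the 4 arrays the difference of 201466_s_at was 0.66 to 0.86 (log2) and its adjusted p 0.1004 to 0.206, and for 201464_x_at the difference was 0.57 to 0.72 and the adjusted p 0.112 to 0.228. In these limma fits with 3 arrays 0 or 1 of all 54613 probe sets passed. They called 0 of the 22 member probe sets, against 3 or 4 at an unadjusted p under 0.05.

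The other JUN genes differed less. JUNB, which encodes a weaker activator that can oppose JUN, read 8.29 and 8.40 (log2) with AICAR, against 8.33 and 8.28 with vehicle. The groups overlapped, and the difference was 0.03 (log2, 95% confidence interval -0.18 to 0.25, adjusted p = 0.891). JUND, a member that many cells express without stimulation, had 4 probe sets with positive differences of 0.07 to 0.14 (log2) and adjusted p-values of 0.534 to 0.815. Its probe set 203752_s_at read 10.91 and 10.90 with AICAR, against 10.80 and 10.79 with vehicle, and the groups did not overlap. That difference of 0.11 had a 95% confidence interval of -0.09 to 0.31 (log2, adjusted p = 0.584), so 1.24-fold higher is the largest rise within it.

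The FOS family encodes the proteins that bind DNA in a pair with a JUN protein. FOS itself read 5.40 and 5.53 (log2) with AICAR, against 5.71 and 5.57 with vehicle. Both AICAR values lay below both vehicle values, by a gap smaller than the span of either pair, and the difference was -0.17 (log2, 95% confidence interval -0.41 to 0.06, adjusted p = 0.460). FOSB, whose short splice form is known from rodents to be long-lived in neurons, read 6.28 and 6.33 with AICAR, against 5.95 and 6.18 with vehicle. These did not overlap, and the difference of 0.24 was not called (log2, 95% confidence interval -0.01 to 0.49, adjusted p = 0.320).

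FOSL1, which encodes FRA1, a FOS protein linked to invasive breast cancer lines, read 6.71 and 6.41 with AICAR, against 6.31 and 6.50 with vehicle. The groups overlapped, and the difference was 0.16 (log2, 95% confidence interval -0.14 to 0.46, adjusted p = 0.607). FOSL2, which encodes FRA2, had 5 probe sets and all 5 had negative differences, from -0.29 to -0.10 (log2). The largest was that of 225262_at, with 9.62 and 9.70 for AICAR, against 9.97 and 9.93 for vehicle. Its groups did not overlap, and its difference of -0.29 (log2, SE 0.0877, 95% confidence interval -0.50 to -0.08) had an adjusted p of 0.168. With variances that follow a trend with level and are fitted robustly, this probe set was called lower (adjusted p = 0.0245), the one call that the other settings added among the 22.

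Probe set 205409_at of FOSL2 read 6.22 and 6.20 with AICAR, against 6.44 and 6.49 with vehicle, a difference of -0.26 (log2, adjusted p = 0.206) without overlap. Probe set 228188_at, with 9.54 and 9.70 for AICAR, against 9.76 and 9.68 for vehicle, overlapped and differed by -0.10 (log2, adjusted p = 0.679). The mean of the 5 probe sets had a difference of -0.20 (log2, 95% confidence interval -0.36 to -0.04, adjusted p = 0.160). JUN and FOSL2 thus had differences of opposite sign in every probe set, but the contrast between both genes was not tested.

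EGR1 had 0 of 3 probe sets called, with differences of -0.06, -0.02 and -0.13 (log2) and adjusted p-values of 0.813, 0.968 and 0.679. Probe set 201694_s_at read 6.95 and 6.93 with AICAR, against 7.19 and 6.72 with vehicle, so the AICAR values fell between the vehicle values. Its 95% confidence interval of -0.38 to 0.34 (log2) leaves room for a difference in either direction. Probe set 201693_s_at read 6.48 and 6.35 with AICAR, against 6.49 and 6.46 with vehicle. Probe set 227404_s_at was dim, at 5.18 and 4.88 with AICAR, against 5.28 and 5.05 with vehicle, and was the one member probe set under the 30th percentile of probe set means.

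IER2, a nuclear protein induced by growth factors, read 10.94 on both AICAR arrays, against 11.04 and 11.00 on the vehicle arrays. The groups did not overlap, and the difference was -0.08 (log2, 95% confidence interval -0.28 to 0.13, adjusted p = 0.724). IER3, an early response protein that acts in cell survival, read 10.12 on both AICAR arrays, against 10.22 and 10.21 on the vehicle arrays. Its difference was -0.10 (log2, 95% confidence interval -0.30 to 0.10, adjusted p = 0.639). In both genes the gap between the groups exceeded the span of each pair of replicates. The moderated standard errors, 0.0852 and 0.0846 (log2), draw on the spread of all probe sets and were wider than the SD of either pair, at most 0.0279.

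**Figure D2:**
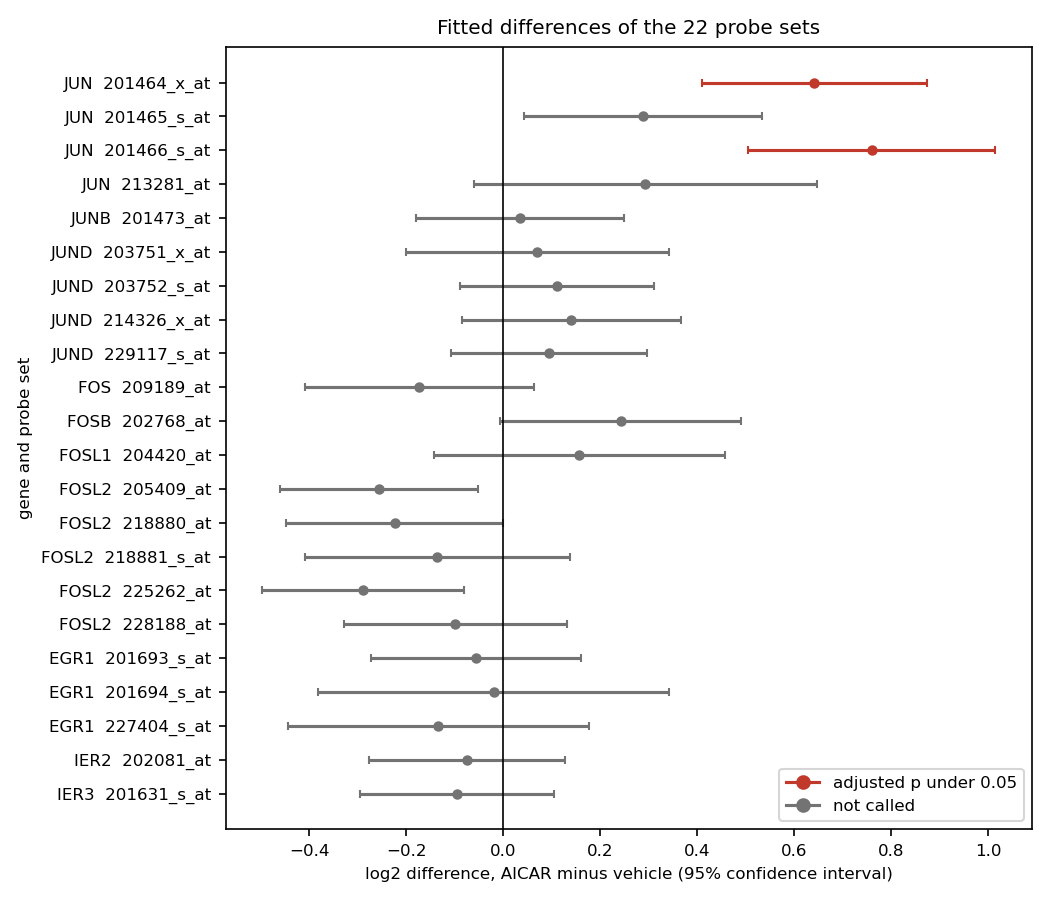
Fitted log2 differences, AICAR minus vehicle, of the 22 probe sets with 95% confidence intervals, by gene and probe set. The 2 called probe sets (red) belong to JUN at 0.64 and 0.76, and the intervals of the other 20 run between -0.50 and 0.65.

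Across the 22 probe sets, 8 had both AICAR values above both vehicle values, 6 had them below and 8 overlapped. Over all probe sets 23.6% lay above, 23.3% below and 46.9% in either direction, so such separation is common on these arrays. The 20 probe sets that were not called differed by -0.29 to 0.29 (log2). In the fits without 1 array 17 of the 22 kept their sign throughout, and the 5 that did not were JUNB, 1 of JUND and all 3 of EGR1. Of the 22 probe sets 6 lay below the median of all probe set means, among them those of FOS and FOSB, and changes of dim probe sets can be compressed on such arrays.

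**Figure D3:**
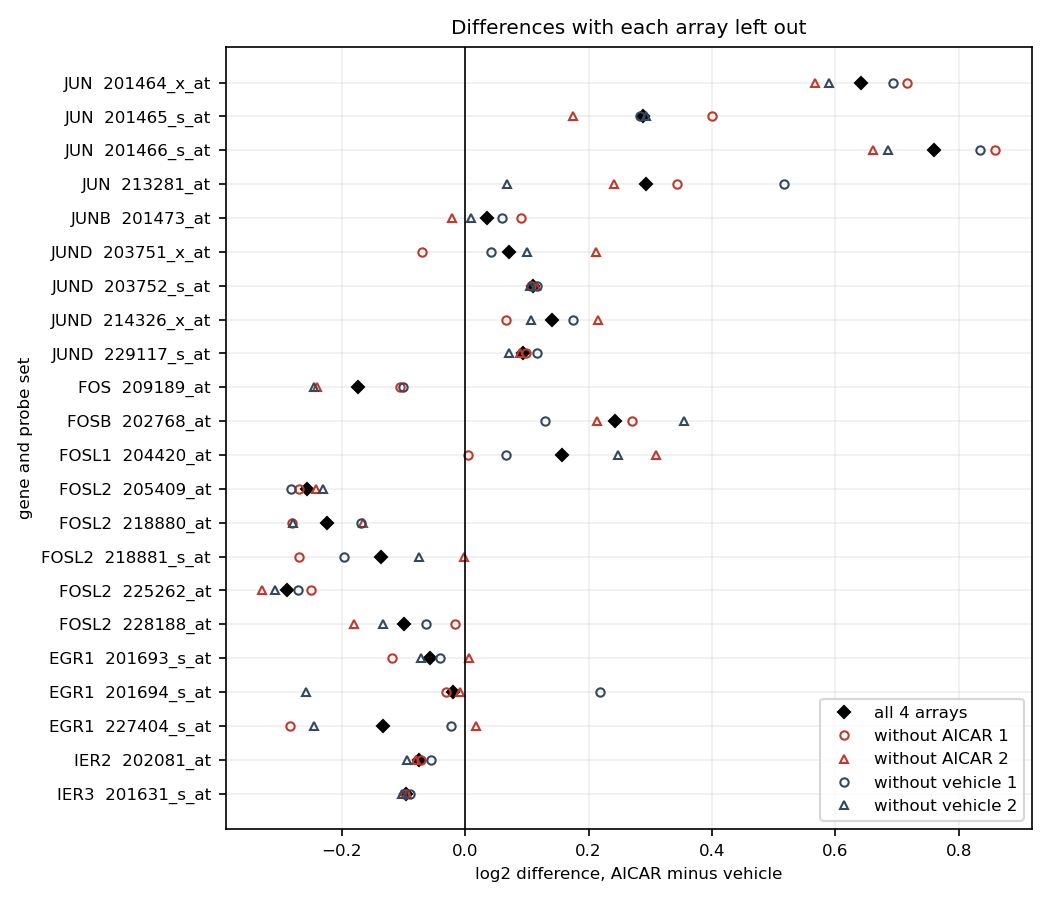
Log2 differences, AICAR minus vehicle, of the 22 probe sets from all 4 arrays (black diamonds) and with each array left out (open symbols). The JUN probe sets stay above 0 and the FOSL2 probe sets below 0 in each fit, and 201694_s_at of EGR1 runs from -0.26 to 0.22.

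The medians of the 4 arrays lay between 6.37 and 6.39 (log2), the replicates of either group had r = 0.997 with each other and r = 0.994 to 0.995 with the other group, over probe sets, which are not independent. The 3′ control probe set of ACTB exceeded its 5′ one by 0.28 and 0.39 with AICAR, against 0.29 and 0.28 with vehicle, and for GAPDH the same measure lay between -0.02 and 0.02 on all arrays. For 14 of 15 luminal markers the brightest probe set ranked above the 90th percentile of all probe sets, and their summed linear level was 133707 and 135888 with AICAR, against 133969 and 135153 with vehicle. Of the 15 measured markers of blood, stromal, endothelial, basal and muscle cells, 0 ranked above the 90th percentile, and their summed level was 1223 and 1163 with AICAR, against 1159 and 1150 with vehicle. Of their 42 probe sets 0 were called (limma) and 4 had an unadjusted p under 0.05, against 16.1% of all probe sets. The part of these markers in the results was not tested. By the brightest probe set of each gene the largest differences were 0.31 for the collagen gene COL1A2 (log2, adjusted p = 0.183) and 0.23 for the endothelial cadherin gene CDH5 (adjusted p = 0.253). Of the luminal markers only ELF3, an epithelial ETS factor, was called, with 2 of 3 probe sets lower, the larger difference being -0.58 (log2, adjusted p = 0.0416).

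The dimerization partners and other bZIP proteins near AP-1 had 1 of 69 probe sets higher and 0 lower, for 25 measured genes, a share of 1.45% beside the background of 1.49%. The called gene was CREB5, a CRE-binding relative of ATF2. Its probe set 205931_s_at read 6.52 and 6.77 (log2) with AICAR, against 5.77 and 5.53 with vehicle, which did not overlap, and it differed by 0.995 (log2, SE 0.124, adjusted p = 0.0242). The 4 probe sets of CREB5 were all positive, from 0.08 to 1.03. Its brightest, 229228_at, was not called (adjusted p = 0.111), and with only the brightest probe set of each gene in the fit CREB5 lost its call, while ATF4, the effector of the integrated stress response, was called lower (log2 -0.42, adjusted p = 0.0434). At an unadjusted p under 0.05 this list had 6 positive and 12 negative differences, against 6.92% and 9.19% of all probe sets. Most calls that other settings added in it were lower, among them ATF4, ATF5, CEBPG and CREM with the filter at the 30th percentile, at -0.42 to -0.47 (log2). These were named after their values were seen. ATF2 and ATF3, named after their values were seen because they pair with JUN, had 0 of 3 probe sets called each. The differences of ATF2 ran from -0.14 to 0.13 and those of ATF3, a stress-induced factor, from 0.06 to 0.52 (log2), with an adjusted p of 0.0889 for the largest.

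The MAP kinase cascade to AP-1, with the GTPase gene HRAS, had 0 of 40 probe sets higher and 1 lower, for 18 measured genes. That is 2.5%, beside 1.49% of all probe sets called in either direction and 0.888% called lower. The called probe set belonged to MAPK8, which encodes the JUN kinase JNK1. Probe set 226046_at read 7.45 on both AICAR arrays, against 7.97 and 7.92 on the vehicle arrays, a difference of -0.49 (log2, SE 0.0857, adjusted p = 0.0492). All 5 probe sets of MAPK8 were negative, but the other 4 differed by -0.03 to -0.16, and the mean of all 5 did not pass (log2 -0.17, adjusted p = 0.230). With the replicate number as a block this probe set did not pass either (adjusted p = 0.0576). In this list 3 positive and 8 negative differences had an unadjusted p under 0.05 (limma), against 6.92% and 9.19% of all probe sets. The list median was -0.08 (log2), beside 0.01 over all probe sets.

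Among serum response factor, its MRTF coactivators and its ternary complex partners, 0 of 24 probe sets were called (limma). By an unadjusted p under 0.05 there were 3 positive and 0 negative, against 6.92% and 9.19% of all probe sets. By the brightest probe set of each gene the largest differences were 0.25 for ELK4 (log2, adjusted p = 0.210) and 0.22 for MRTFA (adjusted p = 0.354). Probe set 238761_at of ELK4 read 8.48 on the second AICAR array and 5.63 on the first, against 5.95 and 5.63 with vehicle, so its difference of 1.26 rests on 1 array. It was named after its values were seen. The other EGR factors and their NAB corepressors had 0 of 10 probe sets called (limma). By an unadjusted p under 0.05, 1 was negative, against 9.19% of all probe sets. EGR3 differed by -0.32 (log2, adjusted p = 0.165) and the corepressor gene NAB1 by -0.19 (adjusted p = 0.370).

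Other immediate early genes showed 1 of 112 probe sets higher and 0 lower, for 46 measured genes, or 0.893% beside the background of 1.49%. DUSP1, the phosphatase that switches off JNK and p38, was the called gene. Probe set 201041_s_at read 9.91 and 10.12 with AICAR, against 9.21 and 9.35 with vehicle, without overlap, and differed by 0.74 (log2, SE 0.108, adjusted p = 0.0335). Its other 2 probe sets differed by 0.31 and 0.05, and the mean of all 3 did not pass (log2 0.37, adjusted p = 0.0605). At an unadjusted p under 0.05 this list had 17 positive and 9 negative differences, against 6.92% and 9.19% of all probe sets. Other settings added calls in both directions, and with the filter at the 50th percentile 7 were higher and 5 lower. The list median was 0.02 (log2), beside 0.01 over all probe sets.

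Genes known as AP-1 targets had 10 of 61 probe sets higher and 0 lower, for 26 measured genes, 16.4% beside the background of 1.49%. These 10 belonged to 4 genes, and 7 of them to CD44, the hyaluronan receptor, whose probe sets share transcripts. CD44 had 13 probe sets with differences from -0.17 to 0.98 (log2). Its probe set 204489_s_at read 8.72 and 8.89 with AICAR, against 7.88 and 7.77 with vehicle, and differed by 0.98 (SE 0.101, adjusted p = 0.0175). IVL, which encodes the cornified envelope protein involucrin, read 7.09 and 7.36 with AICAR, against 6.24 and 6.37 with vehicle, and differed by 0.92 (log2, SE 0.116, adjusted p = 0.0250).

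The others were the uridine phosphorylase UPP1, higher by 0.72 (log2, adjusted p = 0.0343), and the metallothionein MT2A, higher by 0.70 (adjusted p = 0.0354). MT2A was read by an x_at probe set, and metallothioneins are near-identical copies, so its signal may hold RNA of relatives. The cyclin CCND1, another known target and named after its values were seen, had negative differences in both of its probe sets, -0.39 and -0.49, which were not called (adjusted p = 0.109 and 0.0519). Probe set 208712_at of CCND1 was called lower under 6 other settings, with either dim filter, median centring, a trend with robust variances, an adjusted p under 0.1 and the brightest probe set per gene. The median of the list was 0.09 (log2), beside 0.01 over all probe sets. The genes were listed from general knowledge of AP-1 with earlier results of these data known, and their RNA is also set by other factors. The count is therefore a description of the list, and its share is not a test against the background. Whether the list moves with JUN was not tested.

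Genes known as EGR1 targets had 0 of 43 probe sets called (limma) and a median difference of 0.0037 (log2). By an unadjusted p under 0.05 there were 1 positive and 2 negative, against 6.92% and 9.19% of all probe sets. GDF15, a stress cytokine, had the largest difference by its brightest probe set, with 7.28 and 7.57 for AICAR, against 6.86 and 6.81 for vehicle (log2 0.59, adjusted p = 0.0631). That probe set, an x_at one, passed in limma when dim probe sets were left out. The 3 probe sets of GDF15 differed by -0.07 to 0.59, and their mean did not pass (limma, log2 0.21, adjusted p = 0.154). By brightest probe set, the death receptor gene TNFRSF10B followed at -0.27 (adjusted p = 0.236). In none of the fits without 1 array did a probe set of these 7 lists pass.

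**Figure D4:**
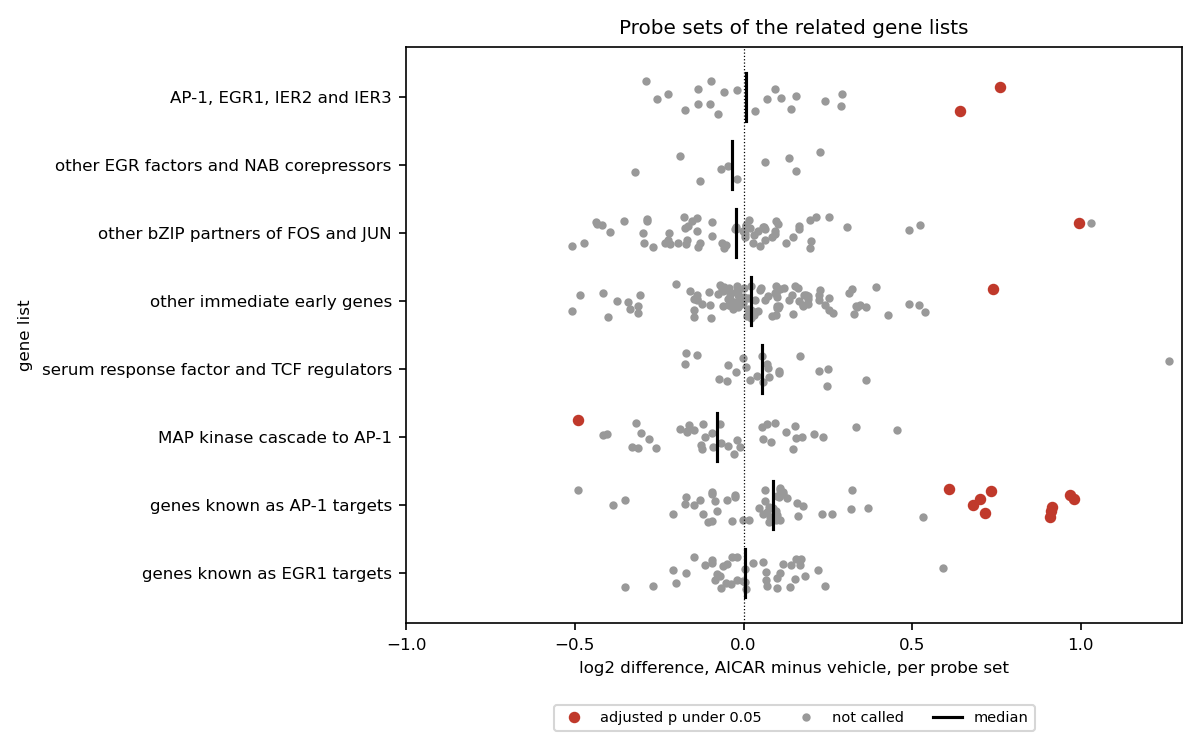
Log2 differences, AICAR minus vehicle, of all probe sets of the 10 genes and of the related lists, with called probe sets in red and the median of each list as a bar. Called probe sets stand at 0.64 and 0.76 among the 10 genes, and those of the AP-1 targets between 0.61 and 0.98.

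The pattern of JUN over the 4 arrays was shared by transcripts with a similar rise. With 201466_s_at as the pattern, the distance between values centred on their own mean was smallest for CD44 (1557905_s_at, 0.0284), PIR (207469_s_at, 0.0441), LINC00993 (237339_at, 0.0444), ANXA3 (209369_at, 0.0673) and PTH2R (206772_at, 0.0729), among 22917 probe sets of other genes above the median level. These transcripts differed by 0.70 to 0.80 (log2). With 4 arrays such likeness says little beyond the size of the difference, and the list shows only which transcripts had nearly the same 4 centred values.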

How the data were processed

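Biotin-labelled total RNA of the 4 samples was measured on Affymetrix arrays, per the labels' protocols. The deposited values are log2 expression per probe set, normalized by the authors; the submitters' processing notes name Affymetrix Expression Console, whose version, summarization and background correction the sources used here do not give. For arrays, their number limits the precision.

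Symbols came from the platform annotation, limited to probe sets with 1 symbol and updated by Entrez ID through RefSeq for names only (41037 of 41091 probe sets matched). Some listed genes are not reported here. All 54613 probe sets other than 62 controls entered a linear model with empirical Bayes moderation (limma 3.58.1, R 4.3.3), AICAR minus vehicle, two-sided, without a trend or filter. An exact permutation test on 2 against 2 arrays cannot go below 0.333 and was not used. The fit was tested on simulated data.

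The members and lists were chosen with earlier results of these data known. Of each list the text names the called genes, at most 5 by size, or else the 2 largest differences by brightest probe set; other genes named for their values are marked as such in the text. The alternatives were dim filters at the 30th and 50th percentiles, quantile normalization, median centring, a trend with robust variances, the highest probe set or mean per gene, an adjusted p under 0.1, a replicate block, and each array left out. Same-numbered replicates are not stated to be paired, and their deviations correlated at r = -0.07.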

Additional observations from a re-analysis of the deposited data

How the results depend on the processing

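Both called JUN probe sets remained called under the filters on dim probe sets, quantile normalization, median centring, a trend with robust variances, an adjusted p under 0.1 and the replicate block, where 2 of 22 member probe sets and 960 of all passed, against 812 without the block. The numbers give no stated pairing. With the highest probe set per gene 1 of 10 members passed, beside 723 of 19775 genes (3.66%), and 1 with the mean of probe sets, beside 746 (3.77%). Leaving out any array gave 0 calls among the members and in each list, and 0 to 1 over all probe sets, with fewer samples in each fit.

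Over all probe sets 1469 passed with the filter at the 30th percentile (3.84%), 2392 at the 50th (8.76%), 3965 with a trend and robust variances (7.26%) and 2390 at an adjusted p under 0.1 (4.38%), and 62.9%, 63.0%, 63.7% and 62.5% of these were lower. For the bZIP partners the calls were 5, 6, 10 and 6 under these settings, of which 4, 5, 8 and 4 were lower. With gene means 2 passed, 1 of them lower, and the 1 call with the highest probe set was lower. For other immediate early genes they were 5, 12, 17 and 9, of which 1, 5, 7 and 4 were lower. There were also 3 after quantile normalization and 2 with the replicate block, with 0 lower, 2 after median centring, 5 with the highest probe set and 5 with gene means, each with 1 lower. For the MAP kinase cascade they were 2, 4, 9 and 3, all lower except 2 of the 9, and 0 with the replicate block or gene means. For AP-1 targets 5 passed with the highest probe set and 5 with gene means, 4 higher and 1 lower in each. Lower calls in that list also numbered 1 and 2 with the dim filters, 3 with a trend and robust variances, 1 at an adjusted p under 0.1 and 1 after median centring. For EGR1 targets they were 1, 1, 1 and 1, and 1 with the highest probe set, all higher. For the serum response factor list 1 passed, higher, with the filter at the 50th percentile. The causes were not tested. The median of the member probe sets was -0.03 to 0.05 without 1 array, -0.0046 after median centring and -0.02 over gene means.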
